A study of Homo sapiens with 12 samples.

Results

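The plasminogen activator system was represented by 7 genes: PLAU, PLAT, PLAUR, SERPINE2, SERPINB2, ANXA2 and S100A10. They were taken by symbol from a table of read counts with 26364 gene rows, and all 7 had a row and enough reads to be among the 14184 genes tested. The table came from RNA-seq of MDA-MB-231 cells, an established line of human breast cancer that lacks the hormone receptors and HER2 amplification and looks mesenchymal. Wells were treated for 24 h with 1 µM dexamethasone (DEX) and 8 µM SH4-54 together (labelled DEX_SH4-54), with 1 µM DEX alone, with 8 µM SH4-54 alone, or with nothing (No_Drug), and each of the 4 groups held 3 replicate wells. DEX is a synthetic agonist of the glucocorticoid receptor, and SH4-54 is a small molecule that binds and inhibits the transcription factors STAT3 and STAT5. The treatment tag of the SH4-54 wells spells the compound SH5-54, and their titles spell it SH4-54. All groups share 1 cell line, the sources used here name no vehicle for the No_Drug wells, and the replicates are wells, so each p-value measures only well-to-well spread.

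Plasminogen is a circulating zymogen that plasminogen activators cut to plasmin, a broad serine protease that dissolves fibrin and degrades matrix proteins. Urokinase, encoded by PLAU, acts mainly at the cell surface, where it is held by its lipid-anchored receptor, encoded by PLAUR. Tissue-type activator, encoded by PLAT, is best known for acting on fibrin. Serpins such as protease nexin-1 (SERPINE2) and plasminogen activator inhibitor 2 (SERPINB2) trap these proteases, and the complex of annexin A2 (ANXA2) with S100A10 offers plasminogen a docking site on the membrane. In breast cancer, urokinase and its receptor are studied for their part in invasion.

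Depth was 26280158 to 35758236 counted reads per DEX_SH4-54 library, 26040956 to 29426776 per DEX library, 25577213 to 28864061 per SH4-54 library and 28439725 to 31552360 per No_Drug library. Levels are given below in CPM, the reads of a gene scaled by the effective size of its library. Markers fitted the label in part. VIM (805 CPM or more in every library), CD44 (274 or more), CAV1 and ZEB1 were present, ESR1 and PGR were at or below 0.233 and 0.45 CPM, and the leukocyte and endothelial markers PTPRC, CD3E, CD14, PECAM1 and CDH5 were at or below 1.2 CPM. SPARC, a gene expected in mesenchymal lines, was at or below 0.3 CPM, while the luminal keratins KRT8 and KRT18 reached 343 and 290 CPM or more in every library. The epithelial genes CDH1 and EPCAM stood at 5.29 to 15.1 and 17.3 to 23.2 CPM. ERBB2, which encodes HER2 and was listed as a low or absent marker, stood at 73.8 to 90.4 CPM. The luminal gene GATA3 was at 0.762 to 1.67 CPM. The DEX response gene FKBP5 averaged 218 ± 47.1 CPM with both compounds, 326 ± 17.5 CPM with DEX, 54.3 ± 2.26 CPM with SH4-54 and 53.9 ± 1.56 CPM without drug (SD, n = 3 each). TSC22D3, another DEX response gene, averaged 75.5 ± 13.3 CPM with both compounds, 85.9 ± 1.91 CPM with DEX, 7.01 ± 1.06 CPM with SH4-54 and 6.81 ± 0.499 CPM without drug (SD, n = 3 each). The DEX_SH4-54 wells were spread farther apart than those of any other group on the second principal component of log2 CPM, which held 17.5% of the variance, with wells 1, 2 and 3 at -22.3, -31.4 and -13. HSPA6, an inducible heat shock gene, stood at 150, 483 and 156 CPM in them, and averaged 0.394 ± 0.217 CPM with DEX, 24 ± 4.07 CPM with SH4-54 and 0.408 ± 0.125 CPM without drug (SD, n = 3 each). Wells 2 and 3 lay about equally far from well 1 on that component, on opposite sides, and HSPA6 set well 2 apart. Results that turn on either well are given with and without it. In bulk RNA, fewer cells that express a gene and less of its RNA per cell cannot be told apart.

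The stretches upstream of the transcription start were searched in 6 members, and PLAT was left out of the search. They are shown for the urokinase gene, whose level moved most with DEX, and for the 3 searched members with an AP-1 match. The AP-1 motif binds FOS and JUN proteins that the glucocorticoid receptor is known to restrain. Each holds the 250 bases before a RefSeq start in GRCh38.p14, written 5′ to 3′ on the gene's strand, with AP-1 matches (TGANTCA, either strand) in capitals. PLAU has a pair of RefSeq starts and the window of 1 is given.
PLAU (chr10:73910882-73911131, plus strand): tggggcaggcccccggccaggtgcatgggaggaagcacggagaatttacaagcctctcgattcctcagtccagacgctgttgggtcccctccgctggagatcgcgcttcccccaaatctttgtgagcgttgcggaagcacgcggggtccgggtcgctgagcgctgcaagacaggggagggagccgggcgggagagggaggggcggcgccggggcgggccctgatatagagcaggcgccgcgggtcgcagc
PLAUR (chr19:43670170-43670419, minus strand): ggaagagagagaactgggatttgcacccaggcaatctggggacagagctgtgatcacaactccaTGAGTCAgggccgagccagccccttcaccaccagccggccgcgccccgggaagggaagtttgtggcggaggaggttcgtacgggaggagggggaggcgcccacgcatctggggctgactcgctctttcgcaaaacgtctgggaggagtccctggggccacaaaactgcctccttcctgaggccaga
SERPINB2 (chr18:63887455-63887704, plus strand): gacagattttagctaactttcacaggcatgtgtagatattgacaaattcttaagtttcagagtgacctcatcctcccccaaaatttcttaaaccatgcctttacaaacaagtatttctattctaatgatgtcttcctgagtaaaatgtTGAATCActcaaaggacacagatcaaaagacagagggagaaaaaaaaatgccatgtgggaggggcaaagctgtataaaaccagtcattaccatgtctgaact
ANXA2 (chr15:60397987-60398236, minus strand): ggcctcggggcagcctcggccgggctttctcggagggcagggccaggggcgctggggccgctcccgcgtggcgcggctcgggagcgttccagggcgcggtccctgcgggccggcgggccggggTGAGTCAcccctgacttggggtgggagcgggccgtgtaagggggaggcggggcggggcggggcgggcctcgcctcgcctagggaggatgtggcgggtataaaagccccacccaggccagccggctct
The AP-1 letters lay 186 to 180 bases before the PLAUR start, 102 to 96 bases before the SERPINB2 start and 127 to 121 bases before the ANXA2 start. Of 35116 RefSeq windows of this length, 6.57% held the motif. The 8 windows of the 6 searched members were also read on both strands for TTCNNNGAA, the letters of a STAT site (in 6.57% of all windows). They were read as well for AGAACA, 1 arm of the glucocorticoid receptor element (in 12.4%), and held neither. The full element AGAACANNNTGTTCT, which contains that arm on each strand, was in 0.00285% of all windows. No match says only that these letters are not in these windows. PLAUR and SERPINB2 were lower and ANXA2 was higher with DEX, as described below.

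**Figure D1:**
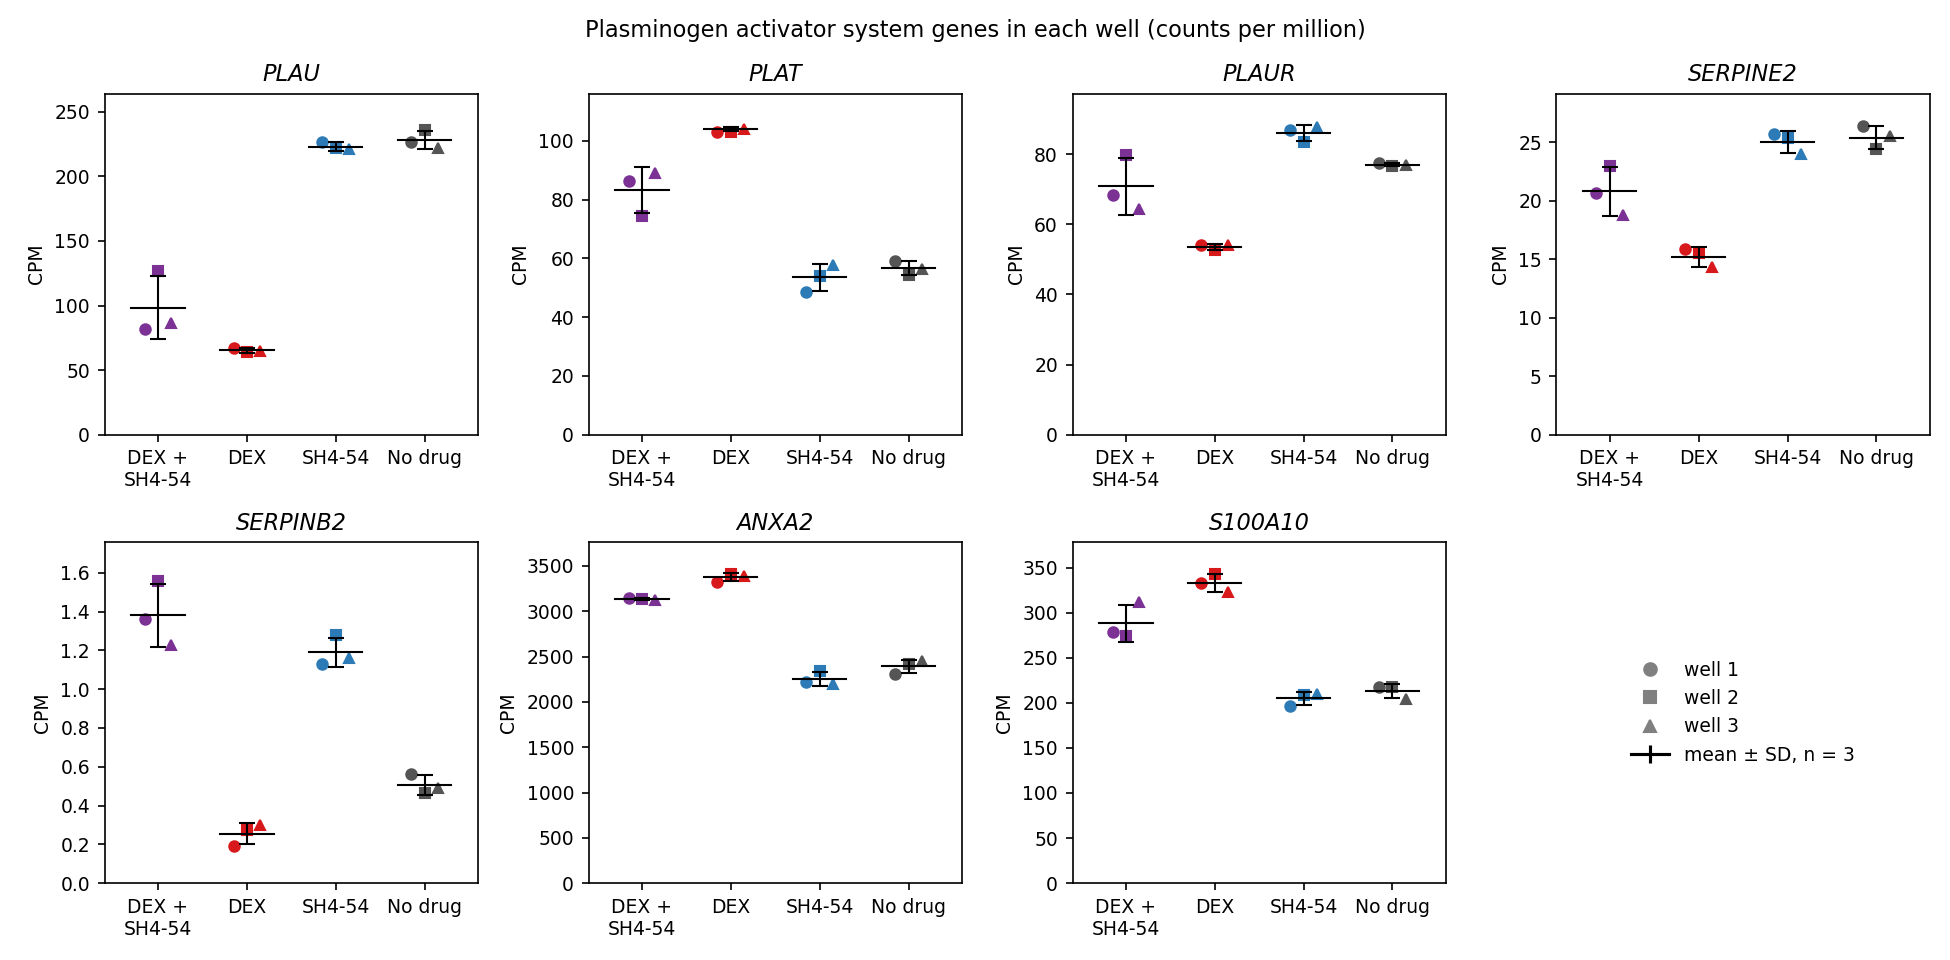
CPM of the 7 genes (vertical axes, each from 0) in each of 3 wells per group, with the mean and SD as black bars. PLAU, PLAUR, SERPINE2 and SERPINB2 are lowest with DEX alone, and PLAT, ANXA2 and S100A10 are highest with DEX alone.

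DEX wells were first compared with No_Drug wells, for the action of the glucocorticoid alone. Urokinase, its receptor and both serpins were lower with DEX, while the tissue-type activator and both chains of the annexin A2 complex were higher. All 7 members passed the test (edgeR quasi-likelihood test, Benjamini-Hochberg adjusted p below 0.05), 3 risen and 4 fallen, in a comparison in which 45.1% of all tested genes passed, 21.9% risen and 23.2% fallen. Their median log2 fold change was -0.523, against -0.0111 over all tested genes. That median is the value of PLAUR, a member that fell, and it does not describe the members that rose.

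Of the activators, PLAU stood at 67.2, 63.7 and 65 CPM in the DEX wells, against 227, 236 and 222 CPM in the No_Drug wells. The groups were far apart, and the wells of each lay close together relative to that gap. The level fell to 0.286 of that without drug (log2 fold change -1.81 ± 0.11, the value after ± being a standard error, edgeR adjusted p = 6.06e-09). PLAT went the other way, at 103, 103 and 104 CPM with DEX, against 59.2, 54.4 and 56.3 CPM without drug. It rose 1.83-fold (log2 fold change 0.87 ± 0.065, edgeR adjusted p = 4.22e-08), with no overlap between wells. The number of PLAU reads per PLAT read, a ratio within each library that needs no scaling and is not corrected for gene length, was 0.65, 0.617 and 0.622 with DEX and 3.82, 4.33 and 3.95 without drug. PLAT thus held the larger number of reads in each DEX well and PLAU in each No_Drug well. Per kilobase of exon in GENCODE v29, which may not be the annotation the counts were made with, PLAU averaged 22.1 ± 0.6 CPM with DEX and 77.3 ± 2.34 CPM without drug (SD, n = 3 each), and PLAT 15.7 ± 0.103 and 8.57 ± 0.367 CPM. On that scale PLAU stayed the more abundant of both in each group. The lengths used join all annotated exons of a gene, 2950 bases for PLAU and 6618 for PLAT, and the transcripts in these cells may be shorter. Which of both was more abundant with DEX therefore depends on the length used.

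The urokinase receptor gene PLAUR stood at 54, 52.6 and 54.2 CPM with DEX, against 77.4, 76.7 and 76.8 CPM without drug. The wells did not overlap, and the fall, to 0.696 of the No_Drug level (log2 fold change -0.52 ± 0.059, edgeR adjusted p = 3.92e-06), was smaller than that of PLAU. PLAU reads per PLAUR read were 1.22 ± 0.0238 with DEX and 2.97 ± 0.0948 without drug (SD, n = 3 each).

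Of the inhibitors, SERPINE2, whose product protease nexin-1 blocks thrombin, urokinase and plasmin, stood at 15.9, 15.5 and 14.3 CPM with DEX, against 26.4, 24.4 and 25.5 CPM without drug. It fell to 0.6 of the No_Drug level (log2 fold change -0.74 ± 0.069, edgeR adjusted p = 5.53e-07), again with no overlap. SERPINB2, a largely intracellular serpin that can inhibit urokinase, was scarce everywhere. Its libraries held 5, 8 and 8 reads with DEX, against 18, 14 and 14 reads without drug, or 0.256 ± 0.0561 and 0.507 ± 0.0512 CPM (SD, n = 3 each). The fall passed (log2 fold change -0.97 ± 0.28, edgeR adjusted p = 0.0202) but was lost with the DESeq2 Wald test (adjusted p = 0.0828), without DEX replicate 1 (edgeR adjusted p = 0.0896) and without No_Drug replicate 1 (0.0723).

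The plasminogen-binding pair rose together. ANXA2, the most abundant member both by reads and per kilobase, stood at 3322, 3413 and 3389 CPM with DEX, against 2306, 2416 and 2450 CPM without drug. S100A10, which encodes the small partner chain, stood at 333, 343 and 323 CPM with DEX, against 217, 217 and 204 CPM without drug. Neither gene's groups overlapped, and the rises were 1.41-fold (log2 fold change 0.50 ± 0.034, edgeR adjusted p = 1.97e-08) and 1.56-fold (0.65 ± 0.047, 3.48e-08). ANXA2 reads per S100A10 read ranged over 10 to 11.4 with both compounds, 9.96 to 10.5 with DEX, 10.4 to 11.3 with SH4-54 and 10.6 to 12 without drug. Only the DEX and No_Drug ranges did not overlap. ANXA2 has processed copies whose reads can be shared with it. Rows of 3 such copies, ANXA2P1, ANXA2P2 and ANXA2P3, held up to 3.62%, 4.19% and 0.0844% of the ANXA2 reads of the same library, and ANXA2P1 ranged from 18 to 3255 reads between libraries. C10orf55, annotated on the strand opposite to PLAU with overlapping exons, held 13 to 39 reads per library, at most 1.04% of those of PLAU. The sources used here do not state the strand setting of the counting.

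**Figure D2:**
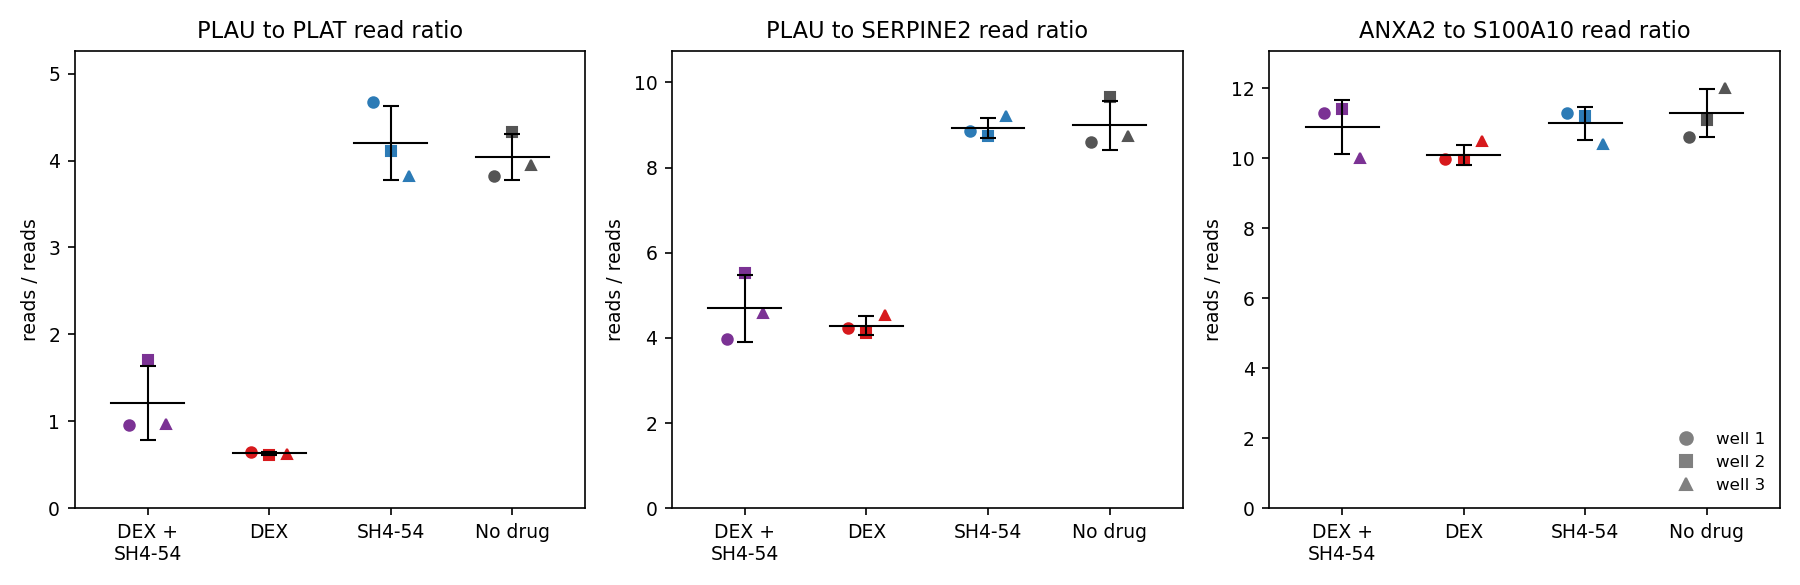
Reads of 1 gene per read of another (vertical axes, each from 0) in each of 3 wells per group, with mean and SD. PLAU per PLAT averages 1.21 with both compounds, 0.63 with DEX, 4.2 with SH4-54 and 4.04 without drug, while ANXA2 per S100A10 stays between 9.96 and 12 in every well.

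SH4-54 alone, compared with no drug, asked what the STAT inhibitor did by itself. SERPINB2 was the 1 member that passed, and it rose. Its libraries held 33, 34 and 30 reads with SH4-54, against 18, 14 and 14 reads without drug, or 1.19 ± 0.0762 and 0.507 ± 0.0512 CPM (SD, n = 3 each). The rise was 2.33-fold (log2 fold change 1.22 ± 0.21, edgeR adjusted p = 0.0109), where 0.599% of all tested genes passed and 0.268% rose. The call was lost without No_Drug replicate 2 (edgeR adjusted p = 0.084), No_Drug replicate 3 (0.0722) or SH4-54 replicate 2 (0.0555). The other members did not pass. PLAU stood at 227, 222 and 221 CPM with SH4-54, against 227, 236 and 222 CPM without drug, and the ranges overlapped (0.979 of the No_Drug level, 95% interval 0.836 to 1.15). The corresponding intervals were 0.855 to 1.04 for PLAT, 0.892 to 1.09 for SERPINE2, 0.896 to 0.992 for ANXA2 and 0.899 to 1.03 for S100A10. PLAUR stood at 86.9, 83.4 and 87.6 CPM with SH4-54, against 77.4, 76.7 and 76.8 CPM without drug. All SH4-54 wells were above all No_Drug wells, but the test was not passed (1.12-fold, 95% interval 1.03 to 1.22, edgeR adjusted p = 0.253), although it was with the other groups' libraries left out (0.0436) and without DEX_SH4-54 replicate 2 (0.0383).

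Adding SH4-54 to DEX moved all 7 members back from the DEX level, toward that without drug and, for SERPINB2, past it. In DEX_SH4-54 wells compared with DEX wells, PLAU, PLAUR, SERPINE2 and SERPINB2 rose and PLAT, ANXA2 and S100A10 fell (7 of 7 passed by edgeR, as did 26.6% of all tested genes, 13% risen and 13.5% fallen). This comparison shares its DEX wells with the one above, so a chance deviation in those wells would enter both with opposite sign. The share of all DEX-responsive genes that moved back was not counted. The libraries as a whole also moved part of the way back on the first principal component, which held 50.3% of the variance. DEX wells lay there at -32, -31.6 and -32.3, combination wells at -19.9, -14.7 and -22.6, and No_Drug wells at 25.4, 26.4 and 25.5. PLAU stood at 82.1, 127 and 86.5 CPM with both compounds, against 67.2, 63.7 and 65 CPM with DEX. Every combination well was above every DEX well, and well 2, the one with the most HSPA6, was the highest (log2 fold change 0.59 ± 0.11, edgeR adjusted p = 0.00172). Without DEX_SH4-54 replicate 2 the log2 fold change was 0.37 (edgeR adjusted p = 3.82e-05). PLAT stood at 86.3, 74.3 and 89 CPM with both compounds, against 103, 103 and 104 CPM with DEX. It fell to 0.802 of the DEX level (log2 fold change -0.32 ± 0.064, edgeR adjusted p = 0.00253), and well 2 was the lowest.

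PLAUR stood at 68.3, 79.8 and 64.3 CPM with both compounds, against 54, 52.6 and 54.2 CPM with DEX (1.32-fold, log2 fold change 0.40 ± 0.059, edgeR adjusted p = 0.000305). SERPINE2 stood at 20.7, 23 and 18.8 CPM, against 15.9, 15.5 and 14.3 CPM with DEX (1.36-fold, 0.45 ± 0.070, edgeR adjusted p = 0.000498). In both genes the combination wells lay above all DEX wells, and well 2 was again the highest. SERPINB2 changed most. Its combination libraries held 35, 43 and 44 reads, against 5, 8 and 8 reads with DEX, a 5.28-fold rise (log2 fold change 2.40 ± 0.23, edgeR adjusted p = 1.17e-05) with a 95% interval of 3.73 to 7.45. Without DEX_SH4-54 replicate 2 the log2 fold changes were 0.31 for PLAUR, 0.37 for SERPINE2, 2.31 for SERPINB2 and -0.24 for PLAT, and each still passed (edgeR adjusted p = 0.000183, 0.00197, 5.99e-05 and 0.00971). The part of whatever sets that well apart was not tested.

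The annexin A2 complex changed least of the 7 members. ANXA2 stood at 3144, 3135 and 3128 CPM with both compounds, against 3322, 3413 and 3389 CPM with DEX, or 0.929 of the DEX level (log2 fold change -0.11 ± 0.034, edgeR adjusted p = 0.0337). The wells did not overlap, but the call was lost without DEX replicate 1, 2 or 3 (edgeR adjusted p = 0.0582, 0.0912 or 0.0824), without DEX_SH4-54 replicate 1 or 2 (0.0637 or 0.0668) and when the other groups' libraries were not fitted (0.0677). S100A10 stood at 278, 274 and 312 CPM, against 333, 343 and 323 CPM with DEX (log2 fold change -0.21 ± 0.047, edgeR adjusted p = 0.00504). Its wells did not overlap either. For ANXA2 the change was close in size to that of SH4-54 alone against no drug, which did not pass (log2 fold change -0.085 ± 0.034, edgeR adjusted p = 0.312).

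The response to DEX was next read in the presence of SH4-54, by DEX_SH4-54 against SH4-54 wells. It kept its direction in 6 members, of which 3 rose and 3 fell, where 40.4% of all tested genes passed, 20.1% risen and 20.3% fallen. PLAU stood at 82.1, 127 and 86.5 CPM with both compounds, against 227, 222 and 221 CPM with SH4-54, and fell to 0.44 of that level (log2 fold change -1.18 ± 0.11, edgeR adjusted p = 6.71e-07), or -1.40 without DEX_SH4-54 replicate 2. PLAT rose 1.56-fold (0.64 ± 0.066, edgeR adjusted p = 2.14e-06), ANXA2 1.39-fold and S100A10 1.4-fold, while PLAUR and SERPINE2 fell to 0.823 and 0.831 of the SH4-54 level. SERPINB2 did not pass, at 1.38 ± 0.164 CPM with both compounds and 1.19 ± 0.0762 CPM with SH4-54 (SD, n = 3 each). Its ratio was 1.16 (95% interval 0.894 to 1.5, edgeR adjusted p = 0.414).

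**Figure D3:**
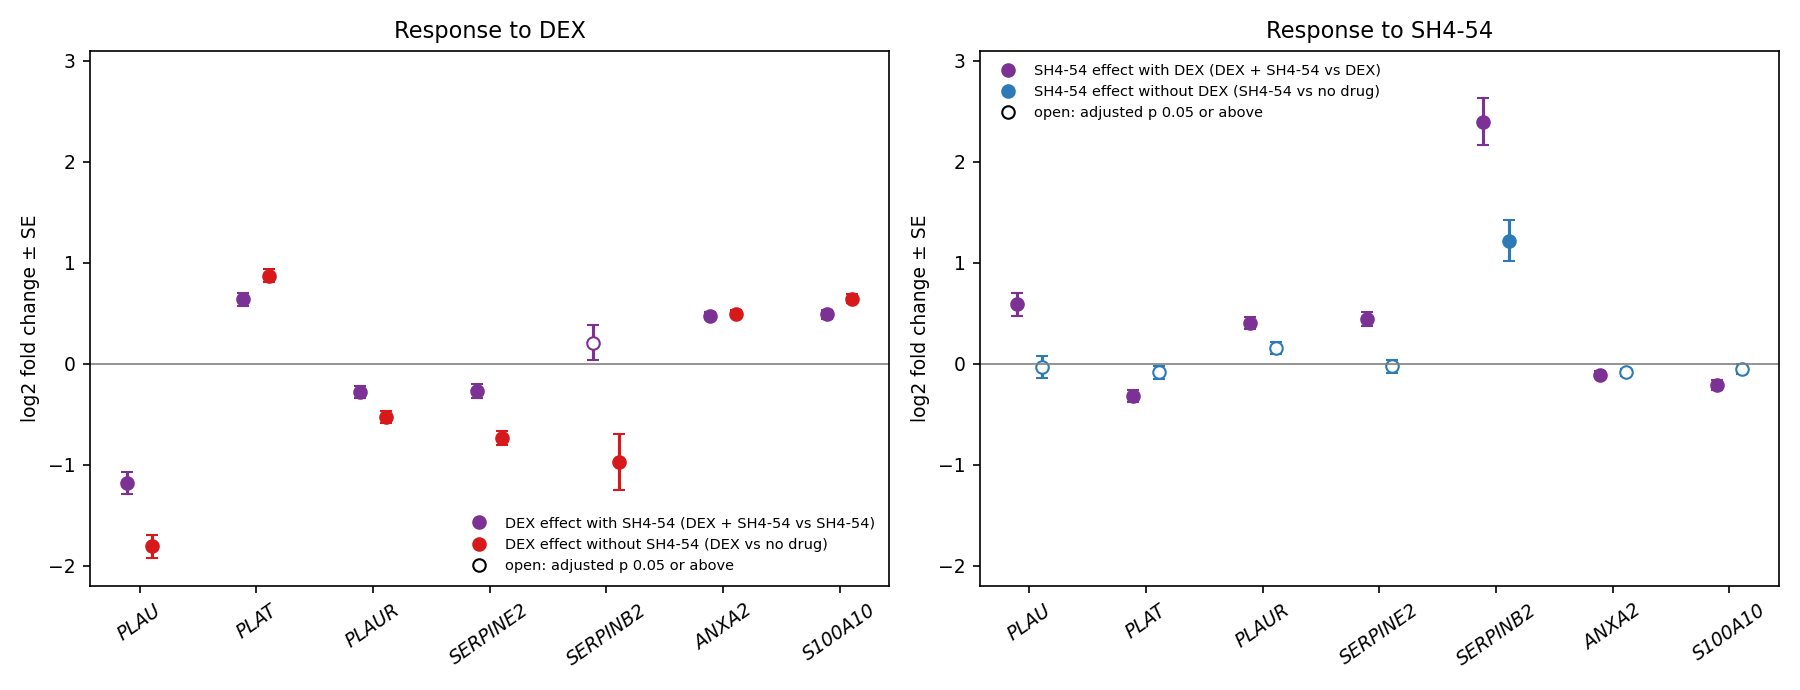
Log2 fold changes (vertical axis) with standard errors for the 7 genes, on the left for DEX in the presence and absence of SH4-54 and on the right for SH4-54 in the presence and absence of DEX. Filled points passed at an adjusted p below 0.05, and the PLAU response to DEX is -1.18 with SH4-54 and -1.81 without it.

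The interaction term tested whether the DEX response itself differed between wells with and without SH4-54. Of the 7 members 2 passed, PLAU and SERPINE2, in a test that 3.9% of all genes passed (2.44% with a positive difference), and for both the fall was smaller with SH4-54. For PLAU the difference was 0.62 ± 0.15 on the log2 scale (edgeR adjusted p = 0.0387). The PLAU call was fragile, as the adjusted p lay between 0.052 and 0.0992 when any 1 of the 9 DEX, SH4-54 and No_Drug libraries was left out and was 0.0553 with DESeq2. Without DEX_SH4-54 replicate 2 the difference was 0.40 (edgeR adjusted p = 0.00109). For SERPINE2 it was 0.47 ± 0.097 (edgeR adjusted p = 0.0177, or 0.0509 without DEX replicate 3), and 0.39 without DEX_SH4-54 replicate 2 (edgeR adjusted p = 0.0285). The differences of SERPINB2 (1.18 ± 0.33, edgeR adjusted p = 0.0735), PLAUR (0.24 ± 0.083, 0.112), PLAT (-0.23 ± 0.092, 0.159) and S100A10 (-0.16 ± 0.067, 0.194) did not pass. Without DEX_SH4-54 replicate 3, the combination well nearest to the DEX wells on the second principal component, these 4 also passed, making 6 of 7, and in the same fit the number of all genes that passed was 2046, against 553 with every library. For ANXA2 the ratio of the responses was 0.985 (95% interval 0.917 to 1.06).

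Both compounds together, compared with no drug, left 4 members risen and 2 fallen, where 42.7% of all tested genes passed, 21.1% risen and 21.6% fallen. PLAU remained below every No_Drug well (0.431 of the No_Drug level, log2 fold change -1.21 ± 0.11, edgeR adjusted p = 4.48e-07), and SERPINE2 was at 0.818 of it (-0.29 ± 0.067, 0.00266). PLAT was 1.47-fold higher (0.55 ± 0.065, edgeR adjusted p = 7.14e-06), ANXA2 1.31-fold and S100A10 1.35-fold. SERPINB2 was 2.7-fold higher than without drug (1.43 ± 0.20, edgeR adjusted p = 3.82e-05). With DEX alone it had been lower than without drug, a call that was lost in some alternatives, as given above. PLAUR was at 68.3, 79.8 and 64.3 CPM, against 77.4, 76.7 and 76.8 CPM without drug, with well 2 above and the others below all No_Drug wells. It did not pass (-0.12 ± 0.058, edgeR adjusted p = 0.104), but without DEX_SH4-54 replicate 2 the log2 fold change was -0.22 (edgeR adjusted p = 0.000455).

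Set in order over the 4 groups, PLAU, PLAUR and SERPINE2 were lowest with DEX, next with both compounds, and highest in the 2 groups without DEX. SH4-54 and No_Drug did not differ by the test for any of these 3 genes, nor did both compounds and No_Drug for PLAUR. PLAT, ANXA2 and S100A10 ran the other way, with SH4-54 and No_Drug not told apart at the low end. SERPINB2 had an order of its own, lowest with DEX, then No_Drug, with SH4-54 and both compounds not told apart at the top. Its calls for DEX against No_Drug and for SH4-54 against No_Drug were each lost in some alternatives.

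Other genes of the pathway moved in both directions with DEX. Of 25 listed partners (plasminogen receptors, inhibitors, activators of pro-urokinase, endocytic receptors and integrins), 19 were tested, of which 7 rose and 4 fell. Their median log2 fold change was 0.124, against -0.0111 over all tested genes, and 45.1% of those passed. THBS1, encoding thrombospondin 1, a matrix glycoprotein that binds plasminogen and its activators, averaged 9881 ± 228 CPM with DEX and 4316 ± 143 CPM without drug (SD, n = 3 each). ITGA5, the fibronectin receptor chain, averaged 238 ± 3.13 CPM with DEX and 80.6 ± 5.17 CPM without drug. CAV1, encoding caveolin-1, a membrane scaffold protein, rose 1.53-fold (log2 fold change 0.61 ± 0.034, edgeR adjusted p = 1.81e-09). Chosen after their values were seen, SERPINF2, which encodes the plasmin inhibitor α2-antiplasmin, rose (1.34 ± 0.20), while ST14, which encodes matriptase, a protease that activates pro-urokinase, and MRC2, an endocytic collagen receptor that binds urokinase and its receptor, fell (-0.97 ± 0.13 and -0.52 ± 0.086). The highest group means of SERPINF2, ST14 and MRC2 were 2.13, 5.23 and 21 CPM. SERPINF2 thus lay below the 5 CPM required of genes named by rule. Likewise chosen after the fact, the plasminogen receptor gene PLGRKT, the plasminogen-binding enolase gene ENO1 and LRP1, which encodes an endocytic receptor for inhibitor complexes, did not pass (log2 fold changes 0.12 ± 0.062, 0.02 ± 0.032 and 0.23 ± 0.099).

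With both compounds compared with DEX, 3 of the 19 partners rose and 4 fell, where 26.6% of all tested genes passed. The number that fell was 2 without DEX replicate 1, 2 or 3, DEX_SH4-54 replicate 1 or 2, or SH4-54 replicate 2. ITGA5 averaged 171 ± 21.1 CPM with both compounds and 238 ± 3.13 CPM with DEX (SD, n = 3 each), a log2 fold change of -0.47 ± 0.065 (edgeR adjusted p = 0.000185). THBS1 did not move back but rose further, to 11344 ± 396 CPM, against 9881 ± 228 CPM with DEX (0.20 ± 0.042, edgeR adjusted p = 0.00337).

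Genes of coagulation, whose thrombin SERPINE2 inhibits, moved in both directions. Of 15 listed, 10 were tested, of which 5 rose and 3 fell with DEX (median 0.162), where 45.1% of all tested genes passed. PROS1, encoding the anticoagulant protein S, averaged 98.1 ± 3.01 CPM with DEX and 42.8 ± 2.91 CPM without drug, and the thrombin receptor thrombomodulin gene THBD 22 ± 1.04 and 12.2 ± 0.447 CPM (SD, n = 3 each). F2RL1, which encodes protease-activated receptor 2, fell (-0.56 ± 0.031, edgeR adjusted p = 1.49e-09). With both compounds compared with DEX, 2 of the 10 rose and 3 fell, where 26.6% of all tested genes passed. PROS1 (-0.49 ± 0.067, edgeR adjusted p = 0.000174) and the thrombin receptor gene F2R (-0.30 ± 0.053, 0.00116) were among those that fell. THBD did not move back but rose further, to 27.6 ± 2.93 CPM (0.32 ± 0.070, edgeR adjusted p = 0.0041). F2RL1 did not pass (-0.07 ± 0.031, edgeR adjusted p = 0.109).

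Relatives of the members showed no common direction. With DEX, where 45.1% of all tested genes passed, 5 of 9 other serpins tested rose and 3 fell (median 0.0959). SERPINB9, encoding a granzyme B inhibitor, fell (-0.50 ± 0.043, edgeR adjusted p = 2.16e-07). SERPINB8 (0.23 ± 0.069, edgeR adjusted p = 0.0126) and SERPINB6 (0.15 ± 0.046, 0.0126) were among those that rose. The count of serpins that rose was 3 without DEX replicate 1 or No_Drug replicate 2 and 2 without No_Drug replicate 3. The count that fell was 1 without DEX replicate 2, No_Drug replicate 2 or No_Drug replicate 3 and with DESeq2. Of 21 other annexin and S100 genes tested 8 rose (5 without No_Drug replicate 3) and 4 fell (median 0.044). ANXA10 fell to 0.615 ± 0.0891 CPM with DEX, against 5.37 ± 0.325 CPM without drug, and S100P rose to 23.8 ± 0.394 CPM, against 4.59 ± 0.982 CPM (SD, n = 3 each). S100A4 fell (-0.72 ± 0.093, edgeR adjusted p = 1.55e-05). ANXA10, like the members, moved back with both compounds, at 3.75 ± 0.664 CPM, against 0.615 ± 0.0891 CPM with DEX (edgeR adjusted p = 7.94e-07). In that comparison S100P, S100A4 and the serpin gene SERPINB9 did not pass (log2 fold changes -0.51 ± 0.19, -0.01 ± 0.096 and 0.01 ± 0.044, edgeR adjusted p = 0.0593, 0.945 and 0.892). Of 7 tested genes with the Ly6/uPAR domain that PLAUR carries, 3 rose and 2 fell with DEX (median 0.0024). LY6K (1.29 ± 0.11, edgeR adjusted p = 1.99e-07) and LYPD6B (-0.28 ± 0.051, 0.000418) were among them. Neither passed with both compounds compared with DEX (0.04 ± 0.099 and 0.01 ± 0.051, edgeR adjusted p = 0.788 and 0.931).

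**Figure D4:**
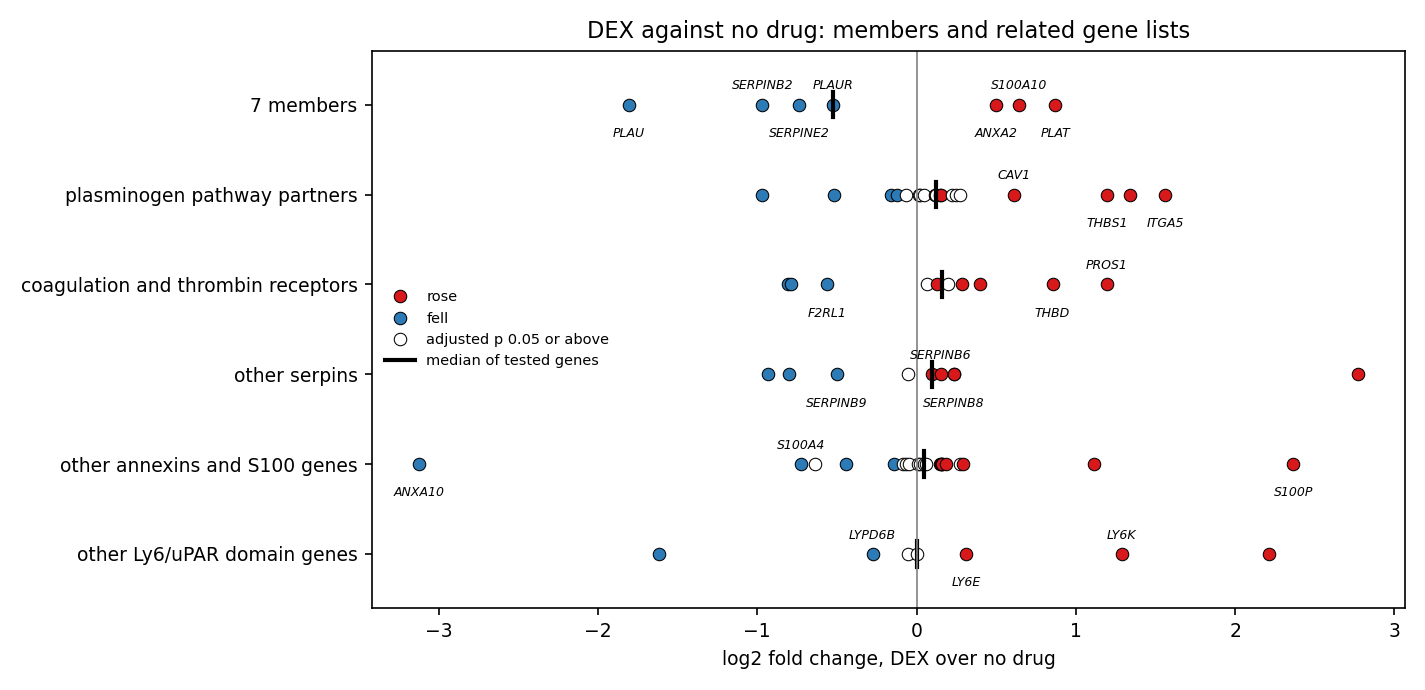
Log2 fold changes of DEX over no drug (horizontal axis) for the 7 members and the tested genes of 5 related lists (rows), red where they rose, blue where they fell and open at an adjusted p of 0.05 or above, with the median of each row as a black bar. The medians of the lists lie between 0.0024 and 0.162, and ANXA10 at -3.12 lies farthest left.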

How the data were processed

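The authors deposited whole-number read counts per gene symbol for 12 libraries, 1 per well, made from ribosomal-RNA-depleted stranded libraries read as 50-cycle single ends, per the labels' protocols. Per the submitters' processing notes, the builds were hg19 and GRCh37 and the tools HISAT2 2.1.0, SAMtools and featureCounts 1.5.1. The sources used here state no annotation, strand setting or rule for reads with several matches, so reads of near-identical copies are uncertain. Sequences are from RefSeq (GRCh38.p14), a different build from that of the counts. Promoter windows were searched for 6 of the 7 members, and PLAT was left out of that search.

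Groups came from sample titles. Genes were filtered by filterByExpr, leaving 14184, scaled by TMM and fitted in 1 edgeR 4.0.16 quasi-likelihood model with 4 groups (R 4.3.3, 8 residual degrees of freedom), and p-values were Benjamini-Hochberg adjusted over all tested genes, threshold 0.05. A standard error is the size of the log2 fold change divided by the root of its F statistic, and intervals are built from them. The fit was also run on simulated data that gave all genes and groups the same dispersion. That run cannot show how the fit behaves where groups differ in spread, as these do. Alternatives were DESeq2 size factors, the DESeq2 1.42.0 Wald test, no filter, a stricter one (1 CPM or more in 3 libraries, mean count 20 or more), the compared groups alone, a replicate block, scaling without the 10 most abundant genes, ANXA2 summed with its copies, and leaving out each library. Their use on the lists was chosen after seeing the data.

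The members, lists and rules were chosen with earlier results of these data known. From each list up to 3 genes with the smallest p for DEX, and 2 for both compounds against DEX, could be named where adjusted p was below 0.05 and a group mean at least 5 CPM. Some items of the lists are not reported here, and the counts leave them out. Genes most like a member had the smallest root mean square difference over 12 libraries in log2 CPM (prior count 2) centred on the No_Drug mean, among genes of at least 5 CPM in every group. No pair of libraries of a group was within sampling noise (the lowest chi-square was 4.18 per degree of freedom).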

Additional observations from a re-analysis of the deposited data

Results flagged for a closer look

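The responses of PLAU and SERPINE2 to DEX differed between wells with and without SH4-54, by the interaction term of the fit across all genes. For PLAU the log2 fold change was -1.18 with SH4-54 and -1.81 without it, a difference of 0.62 (edgeR adjusted p = 0.0387). The PLAU call was lost with DESeq2 (adjusted p = 0.0553) and without any 1 of the 9 DEX, SH4-54 and No_Drug libraries (edgeR adjusted p of 0.052 to 0.0992), and the difference was 0.40 without DEX_SH4-54 replicate 2 (edgeR adjusted p = 0.00109). For SERPINE2 the values were -0.27 and -0.74, a difference of 0.47 (edgeR adjusted p = 0.0177, or 0.0509 without DEX replicate 3). The cause was not tested.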

How the results depend on the processing

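Over 796 combinations of a member's fold change with an alternative, 761 kept the direction and the side of the threshold, 23 lost the call, 7 gained it and 5 changed sign, all of them in values that did not pass. These were SERPINE2 with SH4-54 alone without No_Drug replicate 1 (0.004) or SH4-54 replicate 3 (0.007), within -0.0509 to 0.007 over left-out libraries, and the ANXA2 interaction without No_Drug replicate 1 (0.0035), without SH4-54 replicate 2 (0.0068), within -0.0412 to 0.0068, and with ANXA2 summed with its copies (0.0037). The number of members that passed stayed at 6 or 7 with DEX alone and with both compounds in every left-out fit. With SH4-54 alone it was 1, or 2 with the compared groups alone, where PLAUR passed (edgeR adjusted p = 0.0436), and 0 to 2 with a library left out. For the interaction it was 2, or 1 with DESeq2, and 0 to 6 with a library left out. Over all genes, 85 passed with SH4-54 alone, against 176 without a count filter, 155 with the compared groups alone, 180 with DESeq2 and 26 to 163 with a library left out. The interaction had 553, against 848 without a count filter and 204 to 2046 with a library left out. Both compounds against DEX had 3770, or 2213 to 4633 with a library left out.

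The replicate number as a block gave 7, 1, 7, 6, 6 and 2 members called, in the order DEX alone, SH4-54 alone, both compounds against DEX, against SH4-54 and against no drug, and the interaction, and over all genes 6162, 68, 3484, 5471, 5795 and 394. Wells shared only a number. Of 18 same-numbered pairs none correlated above 0.1 in their deviations from the group means (from -0.0975 to 0.0926), and 2 of 12 libraries correlated best with their own number. Depth limits SERPINB2, which had 5 to 44 reads per library.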

Other observations

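The tested genes whose pattern over the 12 libraries came closest to that of a member were ranked by the root mean square difference of log2 CPM from the No_Drug mean, a description of libraries that share 4 groups. For PLAU they included SYNE1 (0.157) and FGF5 (0.165), of 10191 genes ranked. SYNE1 averaged 94.5 ± 5.12 CPM with both compounds, 74.7 ± 1.57 CPM with DEX, 218 ± 17.4 CPM with SH4-54 and 226 ± 1.69 CPM without drug (SD, n = 3 each). For PLAT they were SQRDL (0.0637), ATP10A (0.0662) and NUDT16 (0.0692), and SQRDL averaged 180 ± 15.9, 228 ± 5.97, 114 ± 1.17 and 121 ± 2.76 CPM in the same order of groups. For PLAUR they were WDR62 (0.059), HMGA1 (0.0667), which encodes a chromatin protein, and TSC22D2 (0.068). SERPINE2 was closest to SLC37A1 (0.0614), C11orf95 (0.0615) and ETS2 (0.0674), which encodes a transcription factor.

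For the annexin A2 complex, ANXA2 was closest to NIT2 (0.0313), TRMT6 (0.0431) and ITPK1 (0.045), and S100A10 to RHOB (0.0349), a small GTPase gene, ATP13A2 (0.0531) and NRBP2 (0.054). No ranked gene came near SERPINB2 to that degree. Its 5 to 44 reads per library make its log2 CPM noisy, and genes as scarce as SERPINB2 were not ranked, so the distances are not comparable. The closest were the heme oxygenase gene HMOX1 (0.44), ADAMTS6 (0.56) and PPP1R15A (0.565). HMOX1 averaged 31.3 ± 5.32 CPM with both compounds, 12.9 ± 0.936 CPM with DEX, 23.4 ± 0.847 CPM with SH4-54 and 15.4 ± 0.788 CPM without drug (SD, n = 3 each). Its group means had the same order as those of SERPINB2. That is no separate result, because HMOX1 was picked for its likeness over these same libraries. Not every step passed, as HMOX1 did not differ between DEX and No_Drug (edgeR adjusted p = 0.0577). Nor did SERPINB2 between both compounds and SH4-54 (edgeR adjusted p = 0.414).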
